A study of Mus musculus with 29 samples.

Results

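The 10 genes described here code for the core of the mTOR pathway in the tibialis anterior (TA) muscle of young and old mice. They are Mtor, Rptor, Rictor, Tsc1, Tsc2, Rheb, Rps6kb1, Eif4ebp1, Ddit4 and Deptor, taken by symbol from the 22537 genes of the count table, by names of the pathway and not by a measured value, although earlier results of these data were known when they were proposed. All 10 passed the filter on low counts in every comparison. Poly-A RNA of the whole TA was sequenced from male C57BL/6 mice of 3 ages, 6 months (6m, 7 mice), 24 months (24m, 7 mice) and 28 months or older (28m, 8 mice). The mice differed by age alone, without treatment or transgene, and all had been through tests of physical function before tissue was taken. The 24m mice belonged to the first sequencing run and the 28m mice to the second, and the same 7 mice at 6m had a library in each run, which gave 29 libraries. Each old group was compared with the 6m libraries of its own run.

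mTOR is a protein kinase that works in 2 complexes. mTORC1, which holds Raptor, promotes protein synthesis and restrains autophagy when amino acids, energy and growth factors are plentiful, and mTORC2, which holds Rictor, phosphorylates Akt. The GTPase Rheb switches mTORC1 on, and the TSC complex switches Rheb off. In skeletal muscle the pathway is known for its part in growth after loading or feeding, and mTORC1 acts mostly through S6 kinase and the 4E-BP repressors of translation. These data measure transcripts and say nothing of phosphorylation, through which the pathway signals.

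Total counts on genes were between 17633475 and 33499162 per library. The 8 fast fibre genes used to check the tissue summed to between 120663 and 155545 CPM (counts relative to the size of the library, scaled with TMM) in the 28m libraries and between 123884 and 138297 CPM in the 6m libraries of that run. In the first run the sums lay between 90105 and 159853 CPM at 24m and between 121000 and 139203 CPM at 6m. Libraries differed in how a gene's deviation from its own mean was related to its exonic length, given here as Spearman's rho over 13322 genes (genes are no independent replicates). A rho below 0 means that long transcripts were under-represented in that library. The rho was between 0.334 and 0.450 in the 7 libraries of 6m from the second run. At 28m it was 0.168 in replicate 4, -0.09 in replicate 6 and 0.273 in replicate 8, and between -0.51 and -0.43 in the other 5. In the first run it was between 0.204 and 0.456 at 6m except in replicate 4, with -0.48, and between -0.04 and 0.325 at 24m except in replicate 4, with -0.39. Of the 10 genes, 8 have an exonic length above the median of the genes tested at 28m, 4489.5 bases, and Eif4ebp1 with 2196 and Ddit4 with 1755 bases are the exceptions.

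At 28m the transcripts of the kinase, of both defining subunits and of Tsc1 were lower than at 6m, while those of the repressor Eif4ebp1 and the inhibitor Ddit4 were higher. The 4 falls did not pass the test once the trend of each library with exonic length and GC content was removed, nor against the 6m libraries of the other run, while both rises passed in these fits too. Without replicate 4 of that other run, the falls of Rptor and Tsc1 passed. In edgeR's quasi-likelihood F test, adjusted by Benjamini-Hochberg over the 12994 genes tested, 6 of the 10 genes passed an adjusted p of 0.05, beside 47.3% of all genes tested. Of the 6, 4 fell, beside 22.9% of all genes, and 2 rose, beside 24.3%. In none of the 10 did the groups separate fully, as they did for 6.18% of all genes towards lower and 6.21% towards higher values at 28m. The median log2 fold change (log2fc) was -0.29 over the 10 genes and 0.01 over all genes. Only Ddit4 of the 10 also reached an absolute log2fc of 1, as 5.7% of all genes did. In whole muscle, fewer cells of a type and less RNA per cell cannot be told apart.

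**Figure D1:**
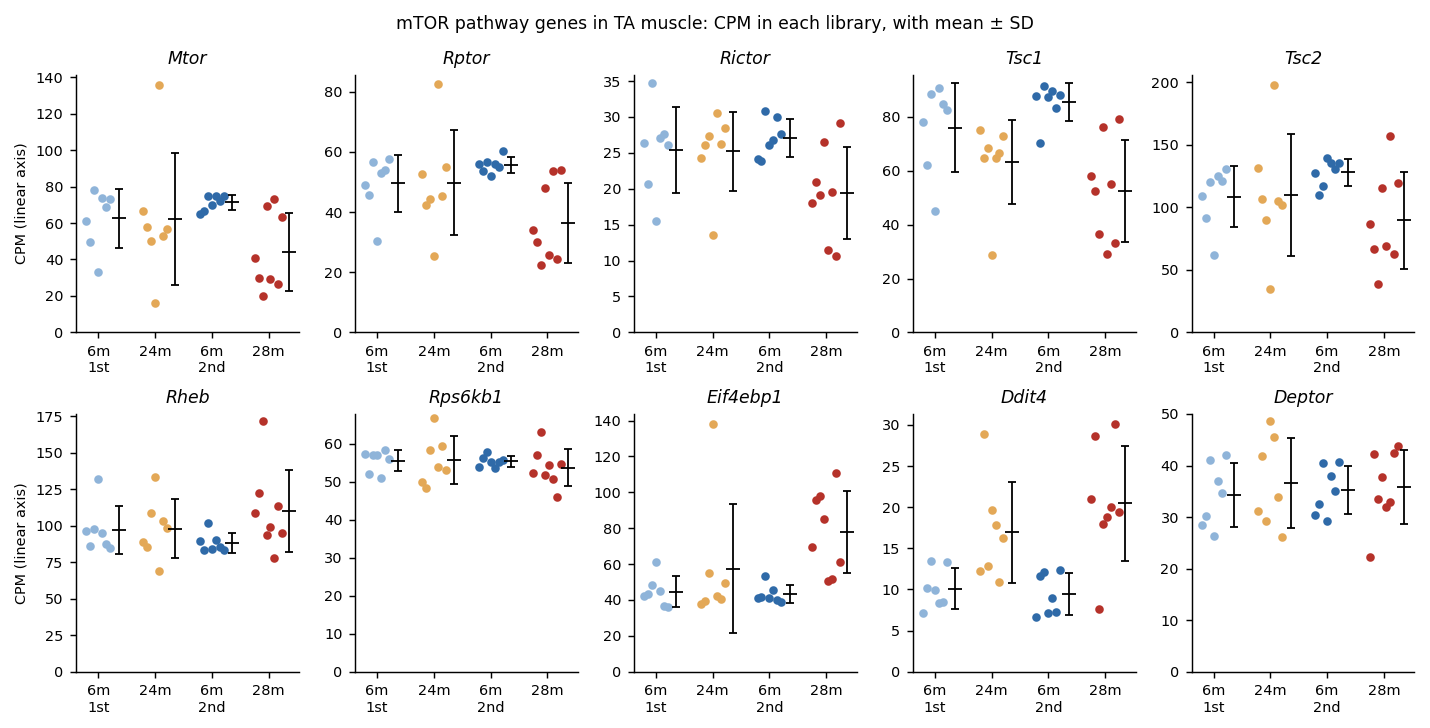
CPM of each of the 10 genes in every library, on linear axes from 0, with 1 point per library in each of the 4 groups (the 6m mice appear once per run), and the mean ± SD beside each group. In the second run Mtor lay between 65.1 and 75.0 CPM at 6m and between 20.2 and 73.2 CPM at 28m, and 7 of 8 values of Ddit4 lay above all 6m values.

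Among the subunits of the complexes, Mtor, the kinase itself, was measured between 65.1 and 75.0 CPM in the 6m mice (median 72.1) and between 20.2 and 73.2 CPM in the 28m mice (median 35.5). The groups overlapped, with 6 of 8 old mice below all 6m mice. Mtor fell at 28m with a log2fc of -0.71 ± 0.25 (SE; adjusted p = 0.0258, edgeR). Its coefficient of variation was 5.70% at 6m and 48.0% at 28m. Rptor, which codes for Raptor, the subunit that brings substrates to mTORC1, was measured between 51.9 and 60.2 CPM at 6m (median 55.8) and between 22.3 and 54.0 CPM at 28m (median 32.0). Again 6 of 8 old mice lay below all 6m mice, and Rptor fell with a log2fc of -0.63 ± 0.19 (adjusted p = 0.0126, edgeR). Rictor, which codes for the defining subunit of mTORC2, was measured between 23.9 and 30.8 CPM at 6m (median 26.8) and between 10.6 and 29.2 CPM at 28m (median 19.4). Here too 6 of 8 old mice lay below all 6m mice, and the log2fc was -0.50 ± 0.18 (adjusted p = 0.0328, edgeR). Mtor lies on the plus strand of chromosome 4 (148448611 to 148557683, GRCm38, the build also named mm10), Rptor on that of chromosome 11 (119602905 to 119899576) and Rictor on that of chromosome 15 (6708379 to 6800401).

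Of the GTPase switch, Tsc1 codes for hamartin, the scaffold of the TSC complex. It was measured between 70.5 and 91.5 CPM at 6m (median 87.9) and between 29.01 and 79.4 CPM at 28m (median 53.7), with 6 of 8 old mice below all 6m mice. Tsc1 fell with a log2fc of -0.73 ± 0.19 (adjusted p = 0.00686, edgeR). Tsc2 codes for tuberin, the subunit that turns Rheb off. It was measured between 109.8 and 138.9 CPM at 6m (median 130.3) and between 38.6 and 157.2 CPM at 28m (median 78.0). With 5 old mice below and 1 above all 6m mice, its log2fc was -0.54 ± 0.22 and did not pass the test (adjusted p = 0.0579, edgeR). Rheb, which codes for the GTPase that activates mTORC1, had values between 83.5 and 102.0 CPM at 6m (median 85.6) and between 78.0 and 171.6 CPM at 28m (median 104.0). Of the old mice, 4 lay above and 1 below all 6m mice, and the log2fc of 0.29 ± 0.13 did not pass the test either (adjusted p = 0.0696, edgeR). Tsc1 lies on the plus strand of chromosome 2 (28641228 to 28691167), Tsc2 on the minus strand of chromosome 17 (24595816 to 24632630) and Rheb on the minus strand of chromosome 5 (24802823 to 24842624). Exons of Tsc2 share 693 bases, 7.20% of its exonic length, with Pkd1 on the other strand, and the strand setting of the counting is not given in the sources used here, so reads from there cannot be assigned with certainty.

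The promoters that RefSeq gives for Mtor, Rptor, Rictor and Tsc1, the 4 genes that fell at 28m, are printed here, although none of these falls passed once the trend with length and GC was removed, each from 250 bases before to 50 bases after the start site, 5′ to 3′, in GRCm38.p6. Capitals mark the letters searched on both strands, CCAAT (bound by NF-Y), CCGGAAGT (the core bound by ETS factors), ATGGCGGC (the core bound by YY1), GCGCATGC (NRF1), CACGTG (E-box), ACGTG (the core of the hypoxia response element, which every E-box also holds) and TATAAA (bound by TBP).
Mtor promoter, chr4:148448332-148448631, plus strand: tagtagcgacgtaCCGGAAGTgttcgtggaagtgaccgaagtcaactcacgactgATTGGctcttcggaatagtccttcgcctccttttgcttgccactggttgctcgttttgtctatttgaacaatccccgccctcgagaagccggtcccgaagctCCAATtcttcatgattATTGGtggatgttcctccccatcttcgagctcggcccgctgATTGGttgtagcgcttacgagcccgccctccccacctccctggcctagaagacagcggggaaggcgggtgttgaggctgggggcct
Rptor promoter, chr11:119602655-119602954, plus strand: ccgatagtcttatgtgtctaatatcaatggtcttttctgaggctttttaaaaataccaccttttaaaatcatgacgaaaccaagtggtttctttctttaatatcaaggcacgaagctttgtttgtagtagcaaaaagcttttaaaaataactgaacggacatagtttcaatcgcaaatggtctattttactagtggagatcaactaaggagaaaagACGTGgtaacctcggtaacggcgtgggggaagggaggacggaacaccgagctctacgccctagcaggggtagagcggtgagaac
Rictor promoter, chr15:6708131-6708430, plus strand: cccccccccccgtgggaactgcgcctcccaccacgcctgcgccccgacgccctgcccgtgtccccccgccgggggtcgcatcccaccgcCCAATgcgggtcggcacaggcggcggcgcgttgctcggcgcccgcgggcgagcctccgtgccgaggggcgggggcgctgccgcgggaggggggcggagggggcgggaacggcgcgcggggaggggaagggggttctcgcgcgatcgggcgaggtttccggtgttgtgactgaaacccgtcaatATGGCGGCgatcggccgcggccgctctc
Tsc1 promoter, chr2:28640983-28641282, plus strand: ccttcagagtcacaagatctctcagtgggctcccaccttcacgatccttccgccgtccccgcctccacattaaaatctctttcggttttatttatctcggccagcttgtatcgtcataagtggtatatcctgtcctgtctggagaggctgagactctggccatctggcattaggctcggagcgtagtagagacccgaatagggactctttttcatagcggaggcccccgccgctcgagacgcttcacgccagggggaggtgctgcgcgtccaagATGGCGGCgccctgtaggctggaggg
The Mtor promoter held 4 such boxes of CCAAT, which start 195, 93, 77 and 36 bases before the start site, where position 1 is the first transcribed base. It also held CCGGAAGT at position -237. The promoters of Rictor and Tsc1 each held ATGGCGGC just after the start site, at positions 23 and 25, and Rictor held a CCAAT box at -161. In the Rptor promoter ACGTG at -34 was the one match, so that no motif searched was found in all 4. Among the 32851 promoters of the same length, 37.4% held a CCAAT box, 3.89% CCGGAAGT and 2.24% ATGGCGGC. RefSeq entries were found for 8 of the 10 genes, and of these 8, ATGGCGGC was found in 2 and CCAAT in 3. A match of letters is a description and not a measured site of binding.

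Downstream of mTORC1, Rps6kb1 codes for S6 kinase 1, which phosphorylates the ribosomal protein S6. Within each group it varied least of the 10 genes relative to its mean. Its values lay between 53.7 and 57.8 CPM at 6m (median 55.2) and between 46.1 and 63.0 CPM at 28m (median 53.3). Its log2fc was -0.07 ± 0.07 (adjusted p = 0.383, edgeR), with 4 old mice below and 1 above all 6m mice. Eif4ebp1 codes for 4E-BP1, which holds back cap-dependent translation by binding eIF4E until mTORC1 phosphorylates it. It was measured between 38.6 and 53.4 CPM at 6m (median 41.3) and between 50.3 and 110.5 CPM at 28m (median 77.4). The groups overlapped narrowly, with 6 of 8 old mice above all 6m mice, and the other two, at 50.3 and 51.7 CPM, were below the highest 6m mouse alone. Eif4ebp1 rose with a log2fc of 0.82 ± 0.16, which is 1.77-fold (adjusted p = 0.00140, edgeR). Rps6kb1 lies on the minus strand of chromosome 11 (86498871 to 86544805) and shares 155 exonic bases with Rnft1 on the other strand, and Eif4ebp1 lies on the plus strand of chromosome 8 (27260329 to 27276674).

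Of the inhibitors, Ddit4 codes for REDD1, a protein made under stress that restrains mTORC1 through the TSC complex. It was measured between 6.65 and 12.4 CPM at 6m (median 8.97), from 139 to 278 counts per library, and between 7.63 and 30.2 CPM at 28m (median 19.7). In 7 of 8 old mice it lay above all 6m mice, and replicate 3 at 7.63 CPM was the exception. Ddit4 rose with a log2fc of 1.09 ± 0.23, which is 2.12-fold (adjusted p = 0.00217, edgeR). Deptor, whose product binds mTOR in both complexes and inhibits it, had values between 29.2 and 40.7 CPM at 6m (median 35.1) and between 22.3 and 43.8 CPM at 28m (median 35.6). Its log2fc was 0.00 ± 0.13 (adjusted p = 0.997, edgeR), with 3 old mice above and 1 below all 6m mice. Ddit4 lies on the minus strand of chromosome 10 (59949669 to 59951834) and Deptor on the plus strand of chromosome 15 (55112317 to 55259271). Exons of Deptor share 303 bases, 3.41% of its exonic length, with Gm9920 on the other strand. The Ddit4 promoter is shown for the gene with the largest change of the 10, with the same letters in capitals.
Ddit4 promoter, chr10:59951721-59952020, minus strand: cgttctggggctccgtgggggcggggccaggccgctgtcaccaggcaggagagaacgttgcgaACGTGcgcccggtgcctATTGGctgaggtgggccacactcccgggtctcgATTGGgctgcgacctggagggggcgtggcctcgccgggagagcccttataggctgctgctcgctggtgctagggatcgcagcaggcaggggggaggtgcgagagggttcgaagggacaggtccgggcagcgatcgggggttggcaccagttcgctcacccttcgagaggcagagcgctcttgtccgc
It held 2 CCAAT boxes, both as ATTGG on the printed strand, at positions -170 and -137, and ACGTG at -187. Of all promoters of that length, 19.6% held ACGTG.

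**Figure D2:**
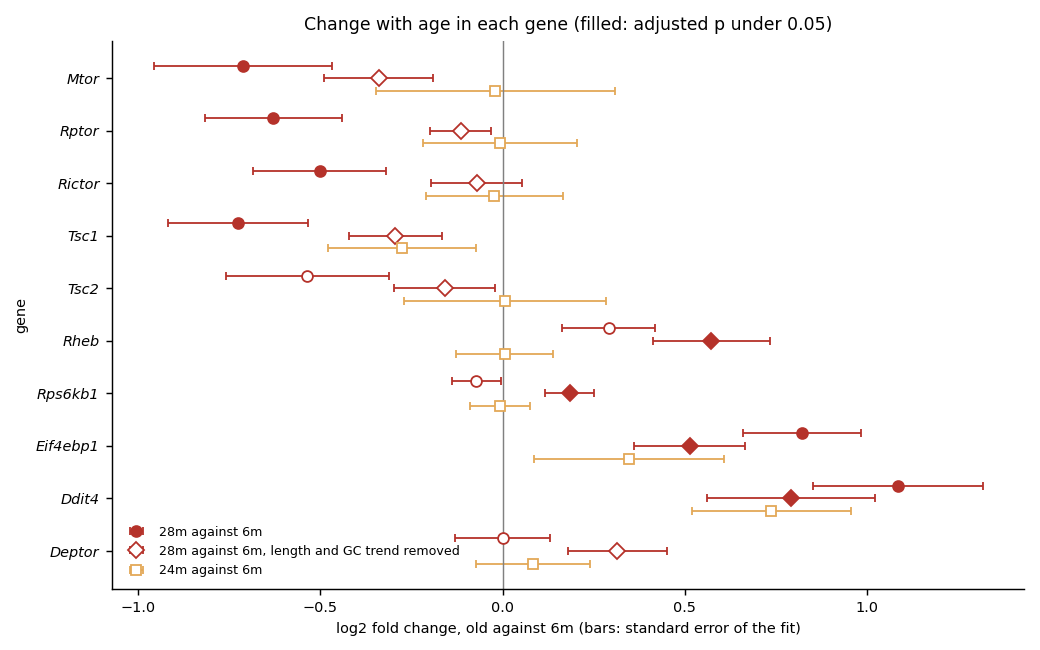
Log2 fold change of each gene, old against 6m, with bars for the standard error of the fit, at 28m (circles), at 28m with the trend with exonic length and GC removed (diamonds) and at 24m (squares). Filled symbols had an adjusted p under 0.05. Eif4ebp1 and Ddit4 kept a filled symbol in both fits at 28m, while Mtor, Rptor, Rictor and Tsc1 did not.

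The size of the changes at 28m was then set beside exonic length. Among all genes tested at 28m, 56.3% of those with more than 10 kb of exon fell and 3.94% rose, while 2.59% of those with up to 2 kb fell and 60.4% rose. When the trend with exonic length and GC content was taken out of every library, Mtor had a log2fc of -0.34 (adjusted p = 0.0822, edgeR), Tsc1 of -0.29 (adjusted p = 0.0764) and Tsc2 of -0.16 (adjusted p = 0.377). Rptor, with -0.11 (adjusted p = 0.289), and Rictor, with -0.07 (adjusted p = 0.677), moved closest to 0. None of the 4 falls passed the test in that fit, in which 37.1% of all genes passed (15.6% lower and 21.6% higher). Eif4ebp1 with 0.51 (adjusted p = 0.0152) and Ddit4 with 0.79 (adjusted p = 0.0140) passed it again, and so did Rheb with 0.57 (adjusted p = 0.0114) and Rps6kb1 with 0.18 (adjusted p = 0.0395), which turned its sign. Against the libraries that the 6m mice had in the first run, 2 of the 10 genes passed, beside 23% of all genes. These were Eif4ebp1 with 0.78 (adjusted p = 0.00909, edgeR) and Ddit4 (adjusted p = 0.00986), and Mtor, Rptor, Rictor and Tsc1 did not pass. Without replicate 4 of that run, a fit added after seeing the data, 4 of the 10 passed, beside 36.9% of all genes, Rptor with -0.55 (adjusted p = 0.0434, edgeR) and Tsc1 with -0.65 (adjusted p = 0.0261) among them.

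The 28m mice with low Mtor were those whose libraries had a rho far below 0. In the 5 libraries with a rho between -0.51 and -0.43, Mtor was measured between 20.2 and 41.0 CPM. In replicates 4, 6 and 8 it was 69.2, 73.2 and 63.4 CPM, close to the 6m range of 65.1 to 75.0 CPM. Ddit4 was 17.98, 20.01 and 19.4 CPM in the same replicates 4, 6 and 8, all above the highest 6m value of 12.4 CPM, and its lowest value of 7.63 CPM came from replicate 3, with a rho of -0.51. Eif4ebp1 was 85.4, 51.7 and 61.3 CPM in replicates 4, 6 and 8, against a highest 6m value of 53.4 CPM.

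**Figure D3:**
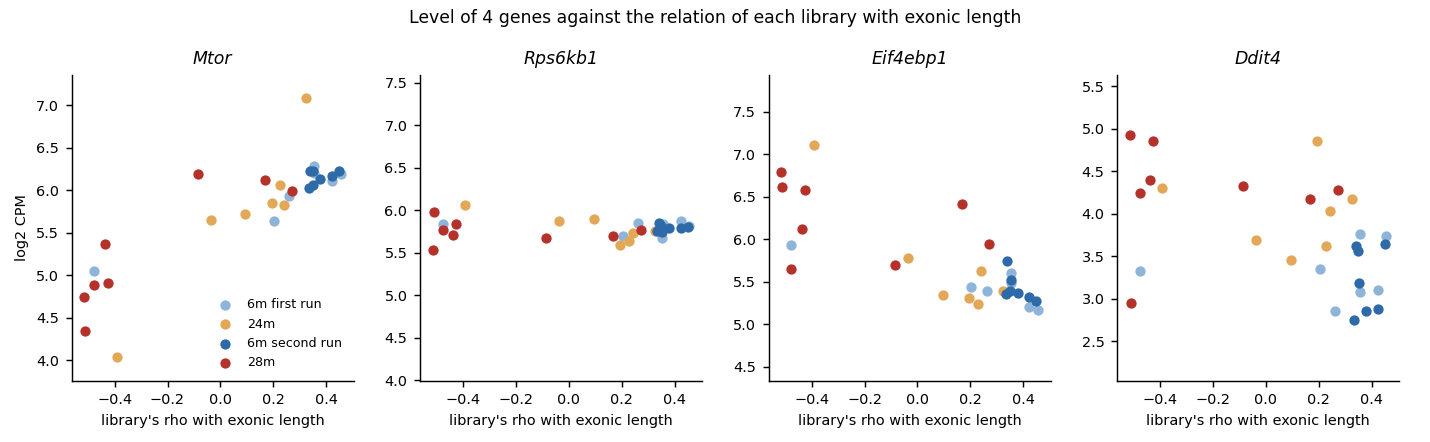
Log2 CPM of Mtor, Rps6kb1, Eif4ebp1 and Ddit4 (y, log2 scale with the same span in each panel) against the library's Spearman rho with exonic length (x), 1 point per library, coloured by group. Mtor was lowest in libraries with a rho of -0.39 or below, Rps6kb1 was nearly level, and most 28m libraries lay high for Ddit4 at both ends of the axis.

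A mouse of 6m that, by its column names, was prepared in both runs showed how far 2 libraries of 1 animal could differ. The first library of replicate 4 had a rho of -0.48 and its second one of 0.379. Across genes, the deviations of these 2 libraries from their group means had a Pearson's r of 0.213. The highest r of the first with a second-run library of another mouse was 0.190, so the pairing rests on the names. Mtor was 33.1 CPM in the first and 70.1 CPM in the second library, a ratio of 2.12, while the ratio was between 0.956 and 1.34 in the other 6 mice. Tsc2 had a ratio of 2.24 in that mouse, Tsc1 of 1.94, Rptor of 1.71 and Rictor of 1.68. Rheb, with 0.635, Eif4ebp1, with 0.676, and Ddit4, with 0.716, had ratios below 1. Rps6kb1, with 0.966, and Deptor, with 1.11, were close to 1. The ratios of Ddit4 lay between 0.860 and 1.15 and those of Eif4ebp1 between 0.960 and 1.10 in the other 6 mice. Eif4ebp1 in the first library of replicate 4, at 61.1 CPM, was thus above 2 of the 8 values at 28m, and Ddit4, at 9.94 CPM, was above 1 of them.

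**Figure D4:**
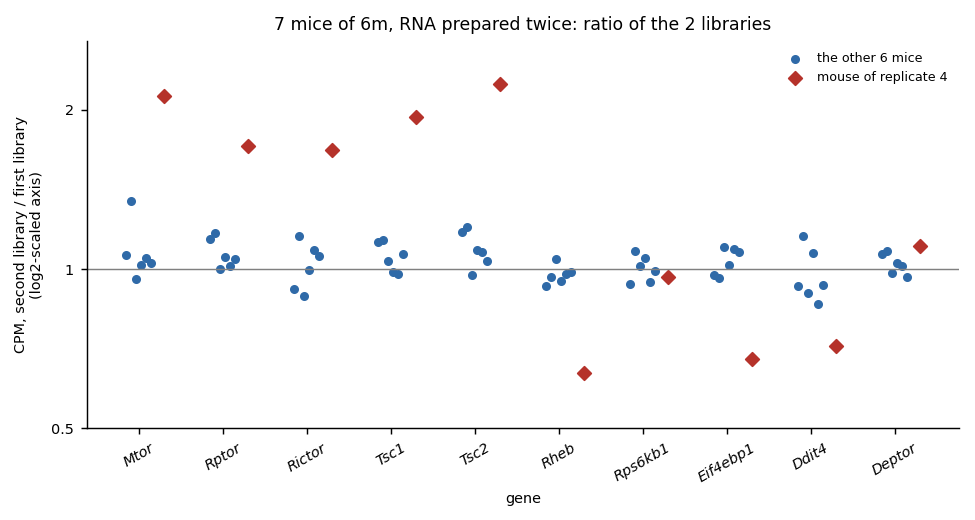
CPM in the second library divided by CPM in the first library of each of the 7 mice at 6m (log2-scaled y axis), for each gene. Circles are 6 mice and the diamond is the mouse of replicate 4, for which Mtor had a ratio of 2.12 and Rheb of 0.635.

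At 24m none of the 10 genes passed the test, beside 0.084% of the 13103 genes tested by edgeR (11 genes). DESeq2 called none of the 10 either, beside 1.4% of the genes it tested (45 lower and 170 higher), and limma-voom called none of the 10, beside 0.0916%. At an unadjusted p under 0.05, which 11.8% of all genes (1546) passed, Ddit4 was the only one of the 10. Ddit4 was measured between 7.15 and 13.4 CPM in the 6m libraries of the first run (median 9.94) and between 10.9 and 28.9 CPM at 24m (median 16.3). The groups overlapped, with 4 of 7 old mice above all 6m mice and 5 of 7 at 6m below all old mice. Its log2fc was 0.74 ± 0.22 with an unadjusted p of 0.00392 (edgeR) and an adjusted p of 0.237. Eif4ebp1 had a log2fc of 0.35 ± 0.26 at 24m (adjusted p = 0.573, edgeR). Replicate 4 alone, at 137.9 CPM, was above all 6m mice, and the other 6 lay between 37.9 and 55.0 CPM, so that without this library the log2fc was -0.02. Tsc1 had a log2fc of -0.28 ± 0.20 (adjusted p = 0.566, edgeR).

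Mtor, Rptor, Rictor, Tsc2, Rheb, Rps6kb1 and Deptor had an absolute log2fc of at most 0.08 at 24m, with standard errors between 0.08 and 0.33. Mtor had values from 16.4 CPM in replicate 4 to 135.5 CPM in replicate 5 (median 56.6), around 62.5 CPM ± 16.1 (SD, n = 7) at 6m. Its log2fc of -0.02 ± 0.33 became 0.15 without replicate 4 and -0.32 without replicate 5. The same pair of libraries held the extremes of Tsc2 (34.8 and 197.9 CPM) and Rptor (25.4 and 82.7 CPM). In replicate 5 the 10 most abundant genes took 19.8% of the counts, against 22.02% to 26.2% in the other 24m libraries.

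The effect at 28m was then compared with the effect at 24m in a model of all 29 libraries. None of the 10 genes passed, and neither did any other of the 13455 genes, 0% called (1611 genes, 12%, had an unadjusted p under 0.05 by edgeR, and DESeq2 called 2 genes, 0.0102%, none of them among the 10). Rptor alone of the 10 had an unadjusted p under 0.05, 0.0411 by edgeR, with a difference of -0.61 ± 0.29 in log2fc (adjusted p = 0.412). For Mtor the difference was -0.68 ± 0.42, for Tsc2 -0.53 ± 0.36, for Rictor -0.47 ± 0.26 and for Tsc1 -0.44 ± 0.28. It was 0.49 ± 0.32 for Eif4ebp1, 0.37 ± 0.33 for Ddit4 and 0.31 ± 0.19 for Rheb, and -0.05 ± 0.10 for Rps6kb1 and -0.07 ± 0.21 for Deptor. The edgeR model of all 29 libraries had no term for the mouse, so both libraries of a mouse sequenced in both runs counted as independent. With the mouse as a block in limma-voom, again 0 genes passed, while 2865 genes had an unadjusted p under 0.05. Values of the 10 genes in that fit are not given here. A larger effect at 28m than at 24m was thus not detected for these genes, and the model without the mouse cannot exclude one. Without replicate 4 of 24m, the difference of Eif4ebp1 was 0.87 and passed the test (adjusted p = 0.0389, edgeR), in a fit that called 12.3% of all genes (453 lower and 1204 higher) where the fit of all libraries called 0.

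The 2 runs of the same 7 mice at 6m, were compared with the mouse as a block, and none of the 10 genes passed the test, beside 0% of 12884 genes by edgeR (1052 genes at an unadjusted p under 0.05). Tsc2 was higher in the second run by 0.27 ± 0.13, Mtor by 0.24 ± 0.13, Tsc1 by 0.20 ± 0.11 and Rptor by 0.20 ± 0.09 on the log2 scale, with adjusted p values of 0.498 each (edgeR). Rictor differed by 0.12 ± 0.10, Deptor by 0.06 ± 0.04, Rps6kb1 by 0.00 ± 0.04, Eif4ebp1 by -0.03 ± 0.07, Ddit4 by -0.09 ± 0.07 and Rheb by -0.12 ± 0.07. Without replicate 4, Tsc2 passed the test (adjusted p = 0.0255, edgeR), in a fit that called 1.44% of all genes (83 lower and 103 higher).

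Ratios between members compare genes within a library and do not depend on its scaling, but they can move with the length relation where the 2 genes differ in length. The log2 ratio of Rps6kb1 to Eif4ebp1, the 2 best known targets of mTORC1, was 0.37 ± 0.14 (SD, n = 7) at 6m and -0.48 ± 0.45 (SD, n = 8) at 28m, with all 8 old mice below all 6m mice by a narrow gap (highest 0.111 against lowest 0.114). The difference of -0.85 had an exact two-sided permutation p of 0.000622, where the smallest possible with 6435 assignments is 0.000311, and an adjusted p of 0.00497 over the 8 ratios tested. Rps6kb1 has 8658 bases of exon and Eif4ebp1 2196, and in the first library of 6m replicate 4, with its rho of -0.48, the ratio was -0.098, below the highest 28m value. With the trend with length and GC removed, the log2fc of these genes at 28m was 0.18 and 0.51, closer together than -0.07 and 0.82, and their ratio was not tested in that fit. The log2 ratio of Deptor to Mtor was higher by 0.85 at 28m, with 7 of 8 old mice above all 6m mice (exact permutation p = 0.0165, adjusted p = 0.0659). It passed the adjusted threshold only when replicate 1, 4 or 6 of 28m was left out. In 6m replicate 4 this ratio was -0.33 in the first library and -1.27 in the second. That step, between 2 libraries named for 1 mouse, is larger than the difference at 28m. The ratio of Rptor to Rictor differed by -0.14 (exact permutation p = 0.394) and that of Tsc1 to Tsc2 by -0.15 (exact permutation p = 0.427). At 24m the ratio of Rps6kb1 to Eif4ebp1 differed by -0.23 (exact permutation p = 0.395), which came to -0.035 without replicate 4 of 24m, and the smallest exact permutation p of the 4 ratios was 0.301.

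The other genes of the pathway were read from lists by branch, with 83 genes tested at 28m. Of these, 25 fell and 15 rose by the same test, beside 22.9% and 24.3% of all genes, and their median log2fc was -0.05. At 24m none of the 83 passed. Of the 44 that are longer than the median gene, 21 fell and 0 rose, beside 37.6% and 10.6% of all genes longer than it. Of the 39 that are not, 4 fell and 15 rose, beside 8.3% and 37.9% of all such genes. With the trend with exonic length and GC removed, 14 were lower and 20 higher at 28m, beside 15.6% and 21.6% of all genes in that fit.

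Of 7 other complex subunits and assembly factors, 4 fell and 0 rose (22.9% and 24.3% of all genes), and without the trend 4 were lower and 1 higher (15.6% and 21.6% of all genes). Tti1, needed to assemble mTOR kinase, had a log2fc of -0.69 ± 0.20 (adjusted p = 0.0101, edgeR) and Mlst8, the subunit shared by both complexes, of -0.48 ± 0.11. The mTORC2 subunits Prr5 and Mapkap1 had -0.49 ± 0.14 and -0.23 ± 0.06. In the fit without the length and GC trend these 4 genes passed again, with -0.68 for Tti1, -0.72 for Prr5, -0.39 for Mlst8 and -0.22 for Mapkap1. Of 2 genes beside TSC and Rheb, Rhebl1, which codes for a relative of Rheb, rose by 0.83 ± 0.20 from 1.74 to 3.17 CPM in the mean and also passed without the trend (0.69).

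Of the other 4E-BP genes, Eif4ebp2 fell and Eif4ebp3 rose. Eif4ebp2 had the largest absolute log2fc of the pathway lists at 28m, -1.35 ± 0.41 (adjusted p = 0.0147, edgeR), with values between 87.1 and 113.5 CPM at 6m and between 9.99 and 91.3 CPM at 28m. Of the old mice, 6 of 8 lay below all 6m mice. Eif4ebp3 rose with a log2fc of 0.71 ± 0.18 (adjusted p = 0.00481, edgeR) from 4.47 to 7.49 CPM in the mean. Without the trend Eif4ebp2 stayed at -1.23 (adjusted p = 0.0173) and Eif4ebp3 came to 0.09 (adjusted p = 0.501). In the same arm, Eif4a1, the helicase of the cap-binding complex, rose by 0.81 ± 0.10 with all 8 old mice above all 6m mice (77.5 to 134.1 against 51.1 to 58.1 CPM), and Eif4g1, its scaffold, fell by 0.47 on the log2 scale. Without the trend Eif4a1 had 0.83 and passed, and Eif4g1 had -0.15 and did not (adjusted p = 0.246). Over the 10 genes of this list, 4 fell and 2 rose (22.9% and 24.3% of all genes), and without the trend 1 was lower and 3 were higher (15.6% and 21.6% of all genes).

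Of 9 inputs of energy and stress, 2 fell and 1 rose, all of them AMPK subunits, and without the trend 2 were lower and 0 higher. All genes had shares of 22.9% lower and 24.3% higher, and of 15.6% and 21.6% without the trend. Prkab2 had a log2fc of -0.91 ± 0.24 (adjusted p = 0.00651, edgeR) and Prkaa2 of -0.58 ± 0.14, the subunits that prevail in muscle, and 7 of 8 old mice lay below all 6m mice in both. Prkab1 had 0.26 ± 0.09. Without the trend Prkab2 had -0.83, Prkaa2 -0.38 and Prkab1 0.19, and Prkab1 no longer passed (adjusted p = 0.0822). Of 9 growth factor inputs, 5 fell and 0 rose, beside 22.9% and 24.3% of all genes, and without the trend 1 was lower and 1 higher, beside 15.6% and 21.6%. Among them were Pik3ca and Pik3cb, catalytic subunits of PI3 kinase, with -0.39 and -0.34, and neither passed without the trend.

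In the amino acid branch, 7 of 30 genes fell and 9 rose, beside 22.9% and 24.3% of all genes, and without the trend 4 were lower and 8 higher, beside 15.6% and 21.6%. The Ragulator subunits Lamtor4 (listed as 0910001L09Rik) and Lamtor2 rose with 0.71 ± 0.18 and 0.67 ± 0.18. Castor2 (listed as Gatsl2), an arginine sensor family member, had -0.68 ± 0.19. Without the trend Castor2 had -0.38 and passed, while Lamtor4 and Lamtor2 had 0.26 and 0.21 and did not. In the S6 kinase arm, 1 of 7 genes fell and 1 rose, and without the trend 0 were lower and 2 higher, read against the same shares. At first these were Eef2k with -0.39 ± 0.11 and Rps6 with 0.73 ± 0.16. Without the trend Eef2k had -0.09 and did not pass (adjusted p = 0.390), while Rps6 had 0.37 and Rps6kb2, which codes for S6 kinase 2, had 0.32, and both passed. Rps6 codes for the ribosomal protein that S6 kinase modifies and has near-identical copies in the genome, so its value is uncertain. In the autophagy arm, 2 of 9 genes fell and 1 rose, and without the trend 2 were lower and 4 higher, to be read against the same shares of all genes. Ulk2 had -0.77 ± 0.14 (adjusted p = 0.000826, edgeR) with all 8 old mice below all 6m mice, and Ulk1, like Ulk2 a kinase that starts autophagy and is a target of mTORC1, had -0.69 ± 0.16. Both passed without the trend, with -0.62 and -0.38, and Atg101 (listed as 9430023L20Rik), with 0.53 ± 0.13 before, did not.

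**Figure D5:**
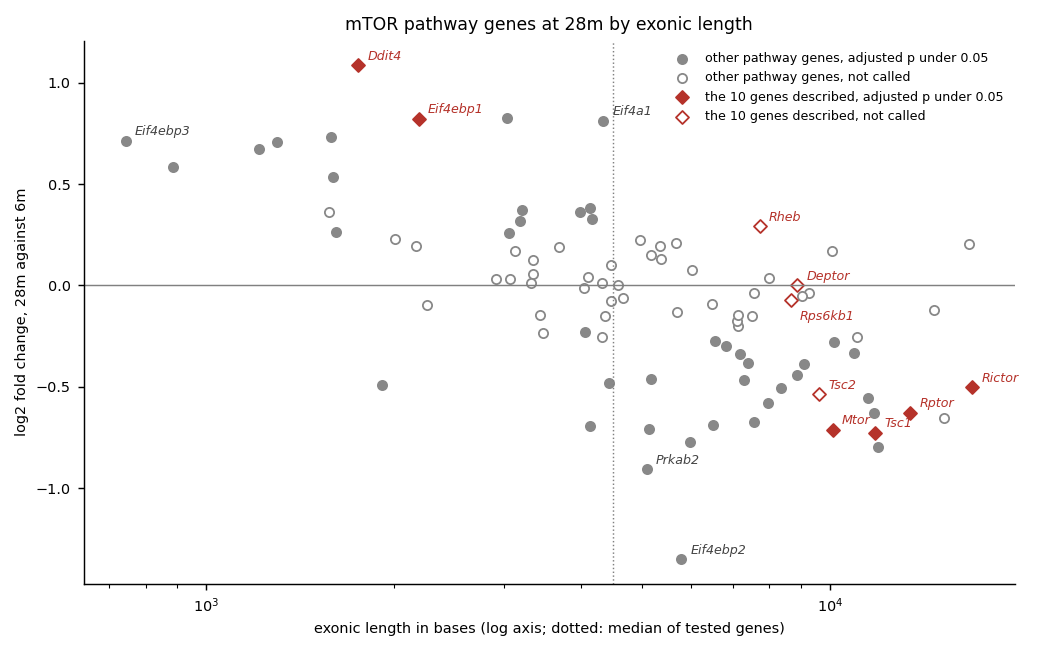
Log2 fold change at 28m (y) against exonic length in bases (x, log axis) for the 10 genes (diamonds) and 83 other genes of the pathway (circles), filled where the adjusted p was under 0.05. The dotted line is the median length of the tested genes, 4489.5 bases, and right of it no filled symbol lies above 0.

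Ddit4 is known to be induced by glucocorticoids, by hypoxia and by ATF4 in the integrated stress response, and genes known for the same inducers were counted at 28m. Of 11 glucocorticoid-induced genes, 4 rose and 1 fell. The metallothioneins Mt2 and Mt1 had log2fc values of 1.99 ± 0.60 and 1.40 ± 0.44, and Zbtb16 of -1.09 ± 0.27 (adjusted p = 0.0129, 0.0167 and 0.00438, edgeR). For Mt2 and Mt1 alike, 3 of 8 old mice lay above all 6m mice, with highest values of 70.2 and 76.7 CPM. Fkbp5, a standard target of the glucocorticoid receptor, had -0.05 ± 0.35. Of 9 ATF4-induced genes tested, 4 rose and 0 fell, among them Psat1 with 1.03 ± 0.32 and Trib3 with 0.55 ± 0.17 (adjusted p = 0.0166 and 0.0160, edgeR). Of 10 hypoxia-induced genes, 4 rose and 3 fell, with Vegfa, the endothelial growth factor, at -0.53 ± 0.12 and Ankrd37 at 0.82 ± 0.26 (adjusted p = 0.00278 and 0.0188, edgeR). At 24m none of these genes passed the test. Of all genes, 24.3% rose and 22.9% fell at 28m. These shares depend on length, with 60.4% rising and 2.59% falling up to 2 kb of exon, and 3.94% and 56.3% above 10 kb. Values of the inducer lists without the trend with length and GC are not given here. The part of these inducers in the level of Ddit4 was not tested.

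Markers of fibre types and other cells were counted at 28m in the same way, beside 22.9% lower and 24.3% higher of all genes. Of 7 fibroblast markers, 5 fell and 0 rose, and their summed level was between 392.7 and 1529 CPM at 28m and between 650.5 and 3607 CPM at 6m. Of 8 endothelial markers, 5 fell and 2 rose (summed 278.2 to 399.9 against 425.4 to 474.5 CPM). Of 7 genes of slow fibres, 4 rose and 0 fell (101.9 to 255.6 against 79.5 to 127.9 CPM). Of the smooth muscle markers, 2 of 6 fell and 2 rose, and their sums did not overlap (4655 to 7325 against 3749 to 4054 CPM). This list holds Des, which muscle fibres also express, so its sum is not a measure of smooth muscle alone. Of the 8 fast fibre genes, 4 rose and 1 fell. Of the satellite cell markers, 2 of 5 tested fell (all 6 listed summed to 28.7 to 46.9 against 40.7 to 51.0 CPM), and of 6 adipocyte markers 2 rose (142.4 to 489.5 against 154.3 to 166.8 CPM). No marker of immune cells passed the test (0 of 7 tested), and all 8 listed summed to between 119.6 and 695.1 against 89.97 to 277.1 CPM. In the lists for Schwann cells (41.7 to 73.9 against 53.2 to 70.1 CPM) and tendon (116.6 to 370.8 against 201.2 to 353.2 CPM), 1 of 6 and 1 of 5 rose and 0 fell. Of the erythrocyte markers, 0 of 2 tested passed, and 2 of 4 were at 0 in both groups (91.7 to 525.4 against 58.5 to 276.3 CPM). No marker of the other lists was at 0 in either group. Values of the marker lists without the trend with length and GC are not given here, and shares of all genes differ with length. The part of these cells in the changes of the mTOR genes was not tested.

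Levels can be compared between genes only per length, as CPM per kilobase of exon. In the 6m libraries of the second run the order was Eif4ebp1 with 19.6 ± 2.29, Tsc2 with 13.3 ± 1.11, Rheb with 11.4 ± 0.86, Tsc1 with 7.22 ± 0.60, Mtor with 7.05 ± 0.40, Rps6kb1 with 6.40 ± 0.16, Ddit4 with 5.39 ± 1.45, Rptor with 4.13 ± 0.19, Deptor with 3.97 ± 0.53 and Rictor with 1.60 ± 0.16 (SD, n = 7). The ranges of neighbours overlapped except between Eif4ebp1 and Tsc2, between Rheb and Tsc1 and between Deptor and Rictor. At 28m Eif4ebp1 was again the highest, with 35.4 ± 10.4 CPM per kilobase, and Rictor the lowest with 1.15 ± 0.38 (SD, n = 8). Ddit4 was the third highest at 28m, with 11.7 ± 3.96, and its range overlapped those of Rheb and Tsc2 beside it. The length used is that of all annotated exons merged. Most 28m libraries had a rho with exonic length below 0, so the order there can move with that relation.

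Likeness of pattern was measured as Pearson's r of log2 CPM over the 29 libraries, which share mice, runs and the length relation, and it is given as a description. The genes most like Mtor were Atf6 (r = 0.986) and Rgp1 (0.983), and Rgp1 was also the most like Tsc2 (0.988). Tsc1 was most like Phf2 (0.989) and Eif4ebp2 (0.985), Rptor like Dnajc5 (0.981) and Rictor like Ubr3 (0.957). For Rheb it was Ormdl3 (0.959), for Eif4ebp1 Trnau1ap (0.921), for Rps6kb1 Rc3h2 (0.832), for Ddit4 Myc (0.874) and for Deptor Umps (0.688). Among the 10 genes themselves, Mtor and Tsc2 had an r of 0.98, and Tsc2 and Rheb of -0.90.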

How the data were processed

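Gene counts of 29 libraries were used. Per the labels and methods, the authors enriched poly-A RNA, prepared libraries with NEBNext Ultra II, aligned single-end reads to mm10 with STAR 2.5.4b and counted reads per gene, and the deposited counts are not normalized. The strand setting is not given in the sources used here. Groups came from the sample labels, and the series' design text, which gives 8 mice at 24m and 7 at 28m, was not followed. The mouse behind each 6m library was read from the column names. The 2 libraries of a mouse deviated together, with r between 0.213 and 0.809 across genes, each above that with any other mouse. The lowest, 0.213, was that of replicate 4, barely above its highest r with another mouse, 0.190. The run comparison used the mouse as a block.

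Counts were filtered with filterByExpr, scaled with TMM and tested with edgeR 4.0.16 (quasi-likelihood, Benjamini-Hochberg adjustment over all genes tested) in R 4.3.3. Standard errors were derived from the test, and log2 CPM used a prior count of 2. Ratios used an added count of 0.5 and an exact permutation test over samples. Alternatives used DESeq2 1.42.0, limma-voom 3.58.1, other scalings and filters, a dispersion shared by all groups, the other run's 6m libraries, a spline trend (5 degrees of freedom each) with exonic length and GC removed from each library, and leaving out each library. Scripts were tested on simulated data. Exonic lengths came from GENCODE vM21 (20202 genes matched by symbol, 1880 by synonym, 455 not), promoters from RefSeq (GRCm38.p6). Figures were drawn with matplotlib 3.10.9. Every column was mapped to a sample, and no library was left out of the tests. All 10 genes are named in each comparison. Of the other pathway genes, those named are at most 4 per list that passed at 28m, by the largest absolute log2fc, and of the genes alike in pattern the 2 with the highest r per gene were listed. Some genes that this rule names are not reported here. Rps6kb2 and the genes of the inducer lists were chosen for naming after their values were seen. The genes and lists were chosen with earlier results of these data known.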

Additional observations from a re-analysis of the deposited data

Results flagged for a closer look

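Single values stood apart within their group in 9 of 40 groups of values of the 10 genes. Their gap to the nearest value exceeded Dixon's limit for the group size. Chance gives about 1 in 20 in independent groups, but these groups share libraries, so that rate cannot be set against the 9. Of the 9 values, 5 came from the replicates 4 of the first run. In replicate 4 of 24m, Eif4ebp1 was high (7.11 log2 CPM), and Rictor (3.77) and Tsc1 (4.85) were low, in the library with a rho with exonic length of -0.39. In replicate 4 of 6m in the first run, Rheb was high (7.05 log2 CPM) and Rptor low (4.93), and the rho with exonic length of that library, -0.48, stood apart as well. In the second run at 6m, Rheb was high in replicate 3 (6.67 log2 CPM) and Tsc1 low in replicate 2 (6.14). At 28m, Ddit4 was low in replicate 3 (2.95 log2 CPM) and Deptor low in replicate 1 (4.48). Without replicate 3 of 28m Ddit4 passed the test as before, and the causes of these values were not tested. No difference between the 28m and the 24m effect passed the edgeR test for the 10 genes with all libraries, and without replicate 4 of 24m that of Eif4ebp1 did (0.87, adjusted p = 0.0389).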

How the results depend on the processing

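The count of 6 genes that passed at 28m was between 5 and 8 when 1 library was left out and between 4 and 7 under 8 other settings. It came to 2, with 0 lower and 2 higher (Eif4ebp1 and Ddit4), when the 6m mice were taken from their first sequencing, where 1422 of all genes were called lower and 1559 higher in place of 2981 and 3159. Without replicate 4 of that run, a fit added after seeing the data, 4 passed (Rptor and Tsc1 lower, Eif4ebp1 and Ddit4 higher), beside 36.9% of all genes. With the trend with exonic length and GC removed, 4 passed as well, with 0 lower and Rheb, Rps6kb1, Eif4ebp1 and Ddit4 higher. Eif4ebp1 and Ddit4 passed in every setting tried and in all 15 fits without 1 library (largest adjusted p 0.00419 and 0.00623 in the latter, edgeR). Mtor, Rptor and Tsc1 also passed in all 15 (largest 0.0486, 0.0253 and 0.0139) and Rictor in 10 (not without replicate 3, 6 or 7 of 6m or 1 or 5 of 28m). Tsc2 passed with DESeq2 (adjusted p = 0.0456), limma-voom (0.0273) and without replicate 4, 6 or 8 of 28m. Rheb passed with upper-quartile scaling (0.0377) and without replicate 6 of 28m. With a dispersion over all libraries Mtor missed the threshold (0.0582).

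No gene of the 10 passed at 24m under any setting (0 to 0 without 1 library). Over all genes at 24m, 3 were lower and 8 higher, against 45 and 170 with DESeq2, 19 and 133 with a dispersion over all libraries, 16 and 30 with the second sequencing of the 6m mice, 6 and 11 without the trend, 1 and 3 with at least 10 counts in every library and 45 and 76 without both replicates 4. Without 1 library these numbers lay between 1 and 3 (without 6m replicate 5 or 6) and 10 and 20 (without 24m replicate 4). For the difference of effects, 0 genes became 453 lower and 1204 higher without 24m replicate 4 and 2 lower with DESeq2, and for the runs 0 became 83 and 103 without replicate 4. Without 1 library, the count was between 0 and 1 for the difference of effects, between 0 and 1 for the runs and between 1 and 2 for the ratios. Several log2 fold changes that had not passed changed sign. At 28m these were Deptor (-0.018 with limma-voom, -0.0082 without filter, -0.014 with the first sequencing less its replicate 4, -0.049 to 0.078 without 1 library) and Rps6kb1 (0.18 without the trend). At 24m they were Tsc2 (-0.0027 with DESeq2, -0.10 with limma-voom, -0.00054 without filter, -0.24 with the second sequencing of the 6m mice) and Rheb (-0.0024, -0.0066 and -0.0048 with DESeq2, limma-voom and no filter). Rptor at 24m was 0.0074 with upper-quartile scaling, 0.0088 with at least 10 counts in every library, 0.0060 with the dispersion over all libraries, 0.068 without the trend and 0.023 without both replicates 4, a fit added after seeing the data. Rps6kb1 was 0.0065, 0.0042 and 0.042 with at least 10 counts, that dispersion and no trend, Rictor 0.044 without the trend, and Mtor 0.046 and Deptor -0.046 without both replicates 4. Without 1 library, the 24m values ran from -0.32 to 0.15 for Mtor, -0.16 to 0.11 for Rptor, -0.12 to 0.088 for Rictor, -0.19 to 0.16 for Tsc2, -0.074 to 0.083 for Rheb, -0.049 to 0.020 for Rps6kb1 and -0.021 to 0.43 for Eif4ebp1. The log2 ratios at 24m ran from -0.11 to 0.011 for Rptor to Rictor, -0.10 to 0.42 for Deptor to Mtor, -0.30 to -0.035 for Rps6kb1 to Eif4ebp1 and -0.27 to -0.044 for Tsc1 to Tsc2. The difference of effects was 0.15 for Rps6kb1 and 0.17 for Deptor without the trend and 0.065 for Deptor without both replicates 4, and without 1 library it ran from -0.084 to 0.0011 for Rps6kb1 and -0.13 to 0.011 for Deptor. Between the runs, Rps6kb1 was -0.027, Eif4ebp1 0.043 and Deptor -0.0065 without the trend, and without 1 mouse the values ran from -0.016 to 0.020 for Rps6kb1 and -0.060 to 0.050 for Eif4ebp1. The causes were not tested.

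The mouse as a replicate block in limma-voom left the difference of effects at 0 genes, and the run comparison had 0 genes with and without the block. No paired analysis was possible because the old and the 6m mice are different animals, for each comparison of ages. The lowest count behind a value of the 10 genes was 139, for Ddit4 at 6m.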
